A study of Mus musculus with 9 samples.

Results

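The inner root sheath keratins Krt25, Krt27, Krt28, Krt71, Krt72 and Krt73 and the hair matrix regulators Msx2 and Dlx3 were followed in sorted skin cells of 2 Flg genotypes. These 8 genes were matched by symbol among the 49671 gene rows of the count table, and they were chosen from the comparison of the genotypes in these same libraries, so their differences between genotypes are a description and carry no test. The study asked how loss of filaggrin, the cornified layer protein encoded by Flg, alters keratinocyte gene expression. It used 4 ko/ko and 5 wt/wt mouse samples, named here by genotype and a number that follows accession order and pairs nothing. All 9 samples were taken by flow cytometry as cells that lack CD45, a leukocyte surface protein, and carry CD49f, which is the alpha-6 integrin of basal epithelial cells; no treatment is given. Polyadenylated RNA was amplified with Smart-seq2 before sequencing. The labels give no strain, age, sex or batch and do not describe how the ko/ko allele was made. Each sample has its own identifier in its title, but nothing states that the samples were prepared separately, so p-values measure the spread between these samples.

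The inner root sheath is the stiff tube that surrounds and moulds the growing hair shaft. Its cells arise from dividing matrix cells of the hair bulb, and they pair type I (acidic) with type II (basic) keratins to build filaments, on which trichohyalin is later cross-linked. In human follicles the products of KRT25, KRT27, KRT28 and KRT71 occur in every layer of the sheath, and those of KRT72 and KRT73 in its cuticle. Mutations of Krt25, Krt27 and Krt71 give mice wavy or sparse coats. Msx2 and Dlx3 are homeodomain transcription factors of the hair matrix that act downstream of BMP and WNT signals, and mice that lack either gene in the follicle fail to keep or form a normal hair coat. The sheath is built in growing follicles and lost as they regress.

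Values are CPM (counts scaled to a common library size, with sizes adjusted by the TMM method), from totals of 15601859 to 23200440 counts per library. Flg had 2, 0, 0 and 4 counts in ko/ko replicates 1 to 4, and 0, 0, 6, 2 and 4 counts in wt/wt replicates 1 to 5, too few to check the labels. The labels call the cells epidermal, yet Dcn, a matrix proteoglycan of fibroblasts, exceeded Krt14, the type I keratin of basal keratinocytes, in 9 of 9 libraries, by 5.93-fold to 24.6-fold. Fewer cells of a type and less RNA per cell cannot be told apart in such bulk samples. The library wt/wt replicate 2 stood apart for the genes described here. Values of the 8 genes, and of some of the others, are given with and without it.

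The keratin genes lie in a pair of clusters on the minus strand. On chromosome 11 of mm10, Krt25 (ENSMUSG00000035831) spans 99315516 to 99322951, Krt27 (ENSMUSG00000017588) 99345565 to 99351104 and Krt28 (ENSMUSG00000055937) 99364872 to 99374903. The type II genes lie on chromosome 15, with Krt74 between Krt71 and Krt72. There Krt71 (ENSMUSG00000051879) spans 101733950 to 101743109, Krt72 (ENSMUSG00000056605) 101776172 to 101786458 and Krt73 (ENSMUSG00000063661) 101793308 to 101802343. Msx2 (ENSMUSG00000021469) lies on chromosome 13 from 53466884 to 53473074 on the minus strand, and Dlx3 (ENSMUSG00000001510) on chromosome 11 from 95120119 to 95125296 on the plus strand. Positions are those of the authors' table and cover the whole gene.

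The 250 bases before the RefSeq start are shown for the 5 keratin genes with the most counts, to show where short motifs lie in them. RefSeq promoters (GRCm38, the assembly of mm10) matched 7 of the 8 genes; Dlx3 had none. All 5 are printed 5′ to 3′ on the gene's own, minus, strand: Krt25 at chr11:99322952-99323201, Krt27 at chr11:99351119-99351368, Krt28 at chr11:99374904-99375153, Krt71 at chr15:101743098-101743347 and Krt73 at chr15:101802361-101802610. Capitals mark matches, on either strand, to short cores of known factors. The homeodomain core was searched as TAATTA, and also in a second form with the letters TAATTG. The core of GATA factors was searched as GATAA, the core of the TCF and LEF factors as CTTTGA, and the TATA box was searched as TATAAA.
Krt25: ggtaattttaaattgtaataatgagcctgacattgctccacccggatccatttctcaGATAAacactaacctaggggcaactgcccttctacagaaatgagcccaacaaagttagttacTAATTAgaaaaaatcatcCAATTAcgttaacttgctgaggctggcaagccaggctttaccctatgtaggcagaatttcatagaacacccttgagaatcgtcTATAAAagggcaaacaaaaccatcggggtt
Krt27: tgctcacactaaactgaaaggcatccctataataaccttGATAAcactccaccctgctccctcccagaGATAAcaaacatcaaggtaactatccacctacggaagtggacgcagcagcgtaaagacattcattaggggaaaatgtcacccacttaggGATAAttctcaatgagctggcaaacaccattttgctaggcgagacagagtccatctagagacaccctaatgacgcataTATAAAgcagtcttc
Krt28: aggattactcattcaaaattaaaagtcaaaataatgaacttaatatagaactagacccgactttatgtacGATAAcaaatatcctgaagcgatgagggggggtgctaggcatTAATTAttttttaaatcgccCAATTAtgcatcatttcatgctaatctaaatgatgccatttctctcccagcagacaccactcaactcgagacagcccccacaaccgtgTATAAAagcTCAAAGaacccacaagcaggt
Krt71: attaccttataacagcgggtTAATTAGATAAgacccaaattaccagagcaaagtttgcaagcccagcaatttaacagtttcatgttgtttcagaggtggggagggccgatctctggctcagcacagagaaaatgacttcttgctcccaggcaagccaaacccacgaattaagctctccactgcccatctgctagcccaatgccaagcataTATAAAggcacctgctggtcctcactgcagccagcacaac
Krt73: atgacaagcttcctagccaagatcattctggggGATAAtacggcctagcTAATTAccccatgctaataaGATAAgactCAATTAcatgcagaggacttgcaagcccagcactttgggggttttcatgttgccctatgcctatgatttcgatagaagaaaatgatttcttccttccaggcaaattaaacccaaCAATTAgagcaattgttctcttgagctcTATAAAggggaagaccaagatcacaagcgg

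The Krt25 and Krt28 promoters shared a run of motifs in the same order. In Krt28 alone of this pair, CTTTGA followed on the other strand, beginning 21 bases before the start. A second CTTTGA of Krt28 began at base 15 after the start, beyond the bases printed. In Krt25, GATAA began 193 bases before the start, TAATTA 131, TAATTG on the other strand 113 and TATAAA 30; in Krt28 the same motifs began 180, 138, 118 and 30 bases before it. In Krt71, TAATTA and GATAA abutted, beginning 230 and 224 bases before the start. Krt73 also held the run of Krt25 and Krt28 in the same order. There GATAA began 217 bases before the start, TAATTA 201, TAATTG on the other strand 172 and TATAAA again 30. Krt73 held a second GATAA at 181 bases and a second TAATTG, on the other strand, at 58. Krt27 held GATAA at 3 places and neither homeodomain core.

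Over the promoters of the 6 keratin genes, 250 bases before to 50 after the start, TATAAA was found in 6, GATAA in 5, TAATTA in 4, TAATTG in 3 and CTTTGA in 1. Among all 32851 promoters of that length, TATAAA was in 13.6%, GATAA in 25.4%, TAATTA in 5.29%, TAATTG in 8.0% and CTTTGA in 16.0%. The TATAAA match of Krt72 lay on the reverse strand, 203 bases before the start. The Msx2 promoter held TAATTA at 187 bases before the start. A match describes letters, and no binding was measured.

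All 8 genes had a lower mean in ko/ko than in wt/wt libraries, and for all 8 the highest library was wt/wt replicate 2. The 6 keratins together reached 2.43, 2.45, 8.15 and 2.28 CPM in ko/ko replicates 1 to 4, against 19.98, 126, 6.15, 6.66 and 2.98 CPM in wt/wt replicates 1 to 5. The ko/ko libraries were low except replicate 3, and the wt/wt libraries were spread widely, so the groups overlapped. The mean sum was 3.83 ± 2.89 CPM in ko/ko (SD, n = 4) and 32.4 ± 52.9 CPM in wt/wt (SD, n = 5), a ratio of 0.118. Without wt/wt replicate 2 the wt/wt mean was 8.95 ± 7.54 CPM (SD, n = 4) and the ratio 0.428, and without wt/wt replicates 1 and 2, left out together after their values had been seen, it was 0.726. That 1 library held 2631 of the 3661 keratin counts, or 71.9%.

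**Figure D1:**
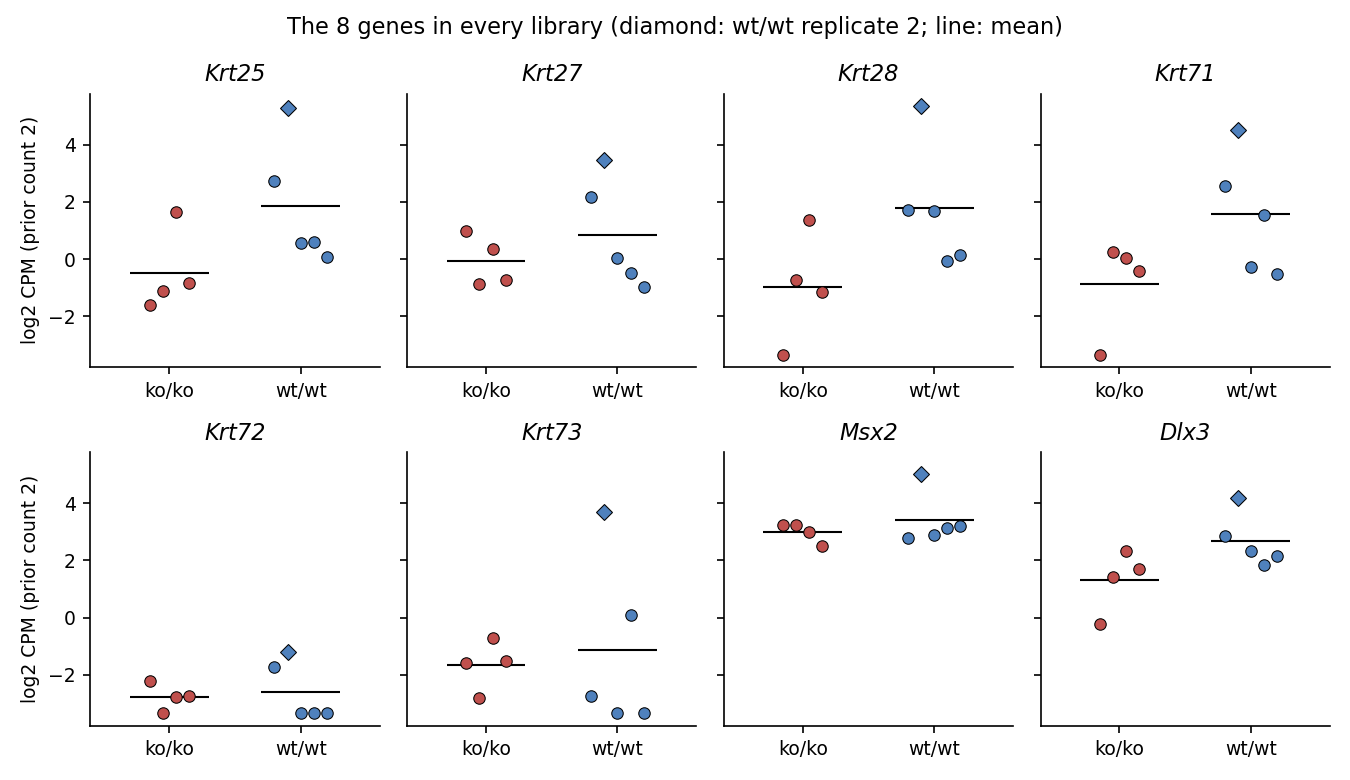
Level of each of the 8 genes as log2 CPM (prior count 2) in ko/ko (4 libraries, red) and wt/wt (5 libraries, blue), with a line at each group's mean and a diamond for wt/wt replicate 2. The diamond is the highest point in every panel, at 39.0 CPM for Krt25 and 32.2 CPM for Msx2, and the remaining points of the groups overlap.

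Among the type I keratins, Krt25 had 0.231, 0.362, 3.00 and 0.455 CPM in ko/ko replicates 1 to 4, against 6.46, 39.0, 1.37, 1.42 and 0.964 CPM in wt/wt replicates 1 to 5. Only ko/ko replicate 3 reached into the wt/wt range, where it exceeded replicates 3, 4 and 5. Mean levels were 1.01 ± 1.33 CPM in ko/ko (SD, n = 4) and 9.84 ± 16.4 CPM in wt/wt (SD, n = 5), and the fitted log2 fold change of ko/ko over wt/wt was -3.26 (SE 1.24). It was -1.32 without wt/wt replicate 2, -0.29 without wt/wt replicates 1 and 2; leaving out ko/ko replicate 3 gave -4.78. The library wt/wt replicate 2 held 73.7% of all Krt25 counts, 6.03-fold the CPM of the next library.

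Krt28, a second type I keratin of the sheath, was not detected in ko/ko replicate 1 and had 0.498, 2.48 and 0.354 CPM in ko/ko replicates 2 to 4, against 3.15, 40.7, 3.13, 0.864 and 1.01 CPM in wt/wt replicates 1 to 5. A count of 0 in ko/ko replicate 1 allows a level of up to 0.192 CPM of the library total. As for Krt25, ko/ko replicate 3 was the 1 ko/ko library within the wt/wt range. Krt28 averaged 0.834 ± 1.12 CPM in ko/ko (SD, n = 4) and 9.76 ± 17.3 CPM in wt/wt (SD, n = 5), with a log2 fold change of -3.52 (SE 1.34) that was -1.27 without wt/wt replicate 2. Leaving out ko/ko replicate 3 gave -5.02. Of all Krt28 counts, 78.2% came from wt/wt replicate 2.

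Krt27 followed another order. It had 1.85, 0.453, 1.17 and 0.506 CPM in ko/ko replicates 1 to 4, against 4.37, 11.0, 0.928, 0.610 and 0.413 CPM in wt/wt replicates 1 to 5. Here ko/ko replicates 1 and 3 lay above 3 wt/wt libraries, and wt/wt replicate 5 was the lowest of all 9. The log2 fold change was -1.80 (SE 0.94), -0.67 without wt/wt replicate 2, and 0.60 without wt/wt replicates 1 and 2, where its direction turned. Some reads of these genes may not be assignable, since 11.1% of the 50-base stretches of Krt27 transcripts and 10.9% of those of Krt25 also occur in transcripts of other genes (Krt15, Krt27 and Krt28 for Krt25, and Krt25 and Krt28 for Krt27), and how such reads were counted is not given in the sources used here.

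Among the type II keratins, Krt71 had 1.09, 0.937 and 0.657 CPM in ko/ko replicates 2 to 4 and no count in ko/ko replicate 1, against 5.75, 22.7, 0.733, 2.80 and 0.597 CPM in wt/wt replicates 1 to 5. The ko/ko libraries were alike except for replicate 1, and wt/wt replicates 3 and 5 lay within the ko/ko range. Krt71 averaged 0.670 ± 0.481 CPM in ko/ko (SD, n = 4) and 6.52 ± 9.30 CPM in wt/wt (SD, n = 5). Its log2 fold change of -3.25 (SE 1.14) was -1.85 without wt/wt replicate 2 and -1.01 without wt/wt replicates 1 and 2.

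Krt73, which pairs with type I keratins in the sheath cuticle, had 4, 1, 11 and 5 counts in ko/ko replicates 1 to 4, against 1, 266, 0, 19 and 0 counts in wt/wt replicates 1 to 5. In CPM this was 0.0453 to 0.516 in ko/ko and 0 to 12.8 in wt/wt. The wt/wt group thus held both the highest library and 2 libraries with no count, and 86.6% of all counts came from wt/wt replicate 2. Without that library the means were 0.261 ± 0.193 CPM in ko/ko and 0.254 ± 0.475 CPM in wt/wt (SD, n = 4 each).

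Krt72, the other cuticle keratin, was close to the detection limit, with 2, 0, 1 and 1 counts in ko/ko replicates 1 to 4, against 4, 7, 0, 0 and 0 counts in wt/wt replicates 1 to 5. Pooled over libraries, ko/ko over wt/wt gave a ratio of 0.463, whose exact 95% bounds of 0.107 and 1.56 cover counting error only. The ratio of mean CPM was 0.493 with all libraries and 1.05 without wt/wt replicate 2. A difference in Krt72 was not detectable at this depth. Krt72 and Krt73 did not pass the filter on low counts, so they have no fitted value.

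The regulator Msx2 had 9.19, 9.24, 7.92 and 5.56 CPM in ko/ko replicates 1 to 4, against 6.76, 32.2, 7.33, 8.54 and 9.04 CPM in wt/wt replicates 1 to 5. Apart from wt/wt replicate 2 the libraries of both genotypes lay in 1 narrow band. Means were 7.98 ± 1.72 CPM in ko/ko (SD, n = 4) and 12.8 ± 10.9 CPM in wt/wt (SD, n = 5), or 7.92 ± 1.06 CPM in wt/wt without replicate 2 (SD, n = 4). The log2 fold change of -0.68 (SE 0.46) became 0.01 without that library.

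Dlx3 had 0.751, 2.58, 4.92 and 3.14 CPM in ko/ko replicates 1 to 4, against 7.17, 17.8, 4.93, 3.46 and 4.36 CPM in wt/wt replicates 1 to 5. The lowest 3 libraries were ko/ko and the highest 3 were wt/wt, with ko/ko replicate 3 and wt/wt replicates 4 and 5 between them. Dlx3 averaged 2.85 ± 1.72 CPM in ko/ko (SD, n = 4) and 7.54 ± 5.89 CPM in wt/wt (SD, n = 5). Its log2 fold change was -1.40 (SE 0.58), -0.80 without wt/wt replicate 2 and -0.57 without wt/wt replicates 1 and 2, so it stayed negative in each.

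edgeR's quasi-likelihood test called 0 of the 6 genes that passed the filter, and called 1 of 18435 genes (0.00542%), the adhesion molecule gene Clmp, in the whole table at an adjusted p under 0.05, while 2816 had an unadjusted p under 0.05. DESeq2 called 0 of the 5 for which it gave an adjusted p, against 3.63% of all genes. Limma voom with sample quality weights, which gives libraries unlike their group less weight, called 0 of 6, against 9.77% of all genes. Its log2 fold changes were -0.94 for Krt25, -0.18 for Krt27, -1.47 for Krt28, -1.05 for Krt71, -0.28 for Msx2 and -0.54 for Dlx3. The genotypes did not overlap in CPM for 0 of the 8, against 6.25% of all genes tested. Since the genes were chosen from this contrast, nothing is read from these shares. The median log2 fold change over all tested genes was -0.03.

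**Figure D2:**
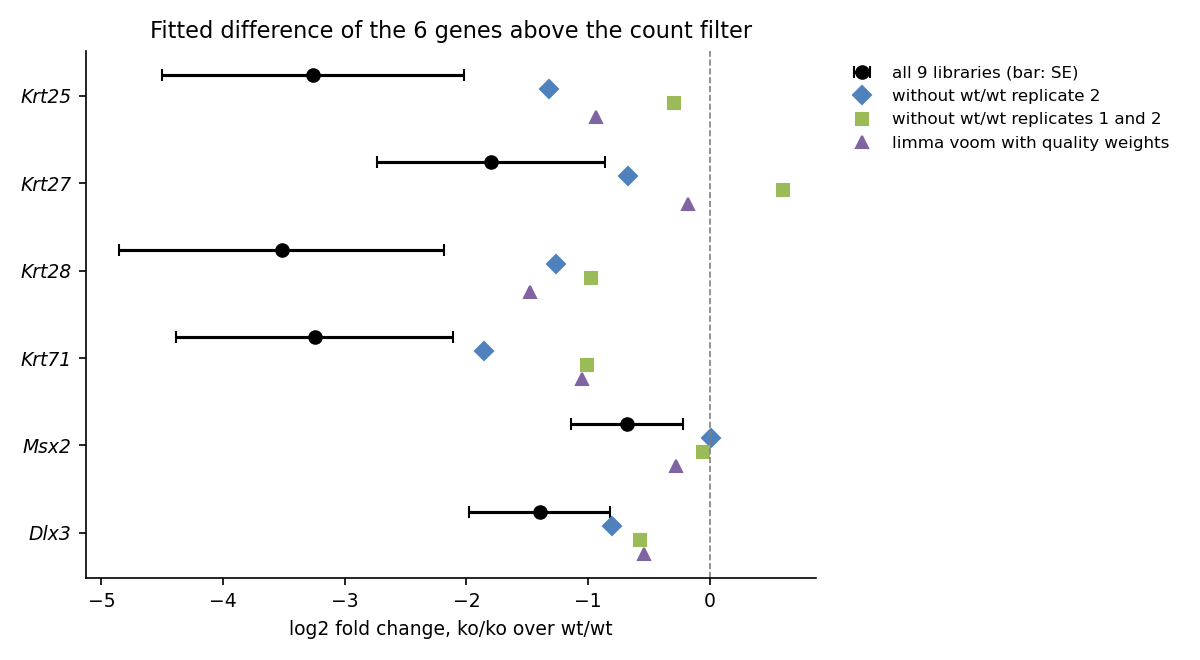
Fitted log2 fold change of ko/ko over wt/wt for the 6 genes that passed the count filter, with all 9 libraries (black, bar: SE), without wt/wt replicate 2 (diamond), without wt/wt replicates 1 and 2 (square) and with voom quality weights (triangle). For Krt25, Krt27, Krt28 and Krt71 all 3 alternatives lie closer to 0 than the fit to 9 libraries, and Msx2 moves from -0.68 to 0.01 without wt/wt replicate 2.

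Per kilobase of exon, the ko/ko libraries ranked the regulators first. There Msx2 stood at 2.43 ± 0.525 CPM per kb, Dlx3 at 1.09 ± 0.659, Krt27 at 0.642 ± 0.424, Krt28 at 0.514 ± 0.689, Krt25 at 0.509 ± 0.668, Krt71 at 0.307 ± 0.220, Krt73 at 0.121 ± 0.0894 and Krt72 at 0.0267 ± 0.0239 (SD, n = 4). In wt/wt the order was Krt28 at 6.01 ± 10.7 CPM per kb, Krt25 at 4.95 ± 8.27, Msx2 at 3.90 ± 3.33, Krt71 at 2.98 ± 4.26, Dlx3 at 2.89 ± 2.26, Krt27 at 2.23 ± 2.90, Krt73 at 1.27 ± 2.59 and Krt72 at 0.0542 ± 0.0779 (SD, n = 5). Without wt/wt replicate 2 the wt/wt order also began with Msx2 at 2.41 ± 0.322 and Dlx3 at 1.91 ± 0.607 CPM per kb, followed by Krt25 at 1.28 ± 1.31 and Krt28 at 1.26 ± 0.784 (SD, n = 4). In ko/ko, neighbours in the order from Dlx3 to Krt73 differed by less than the larger of their SDs, as did all neighbours in wt/wt.

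The make-up of the keratin RNA was set apart from its amount by taking each gene's share of the 6 keratins per kb in each library. Type I keratins made up 88.8, 60.1, 84.6 and 63.6% in ko/ko replicates 1 to 4, against 74.4, 75.8, 90.5, 48.7 and 83.4% in wt/wt replicates 1 to 5. The groups interleaved, and type I keratins prevailed in 8 of 9 libraries, with a median of 75.8%. In raw counts the type I share of wt/wt replicate 2 was 71.6% (exact 95% interval 69.9 to 73.4%), while wt/wt replicate 4 at 43.5% (34.9 to 52.4%) and wt/wt replicate 3 at 88.1% (81.1 to 93.2%) lay outside it. Amplified reads are not independent molecules, so these intervals are too narrow for the spread between samples.

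The library ko/ko replicate 1 had a make-up of its own. Krt27 was 80.9% of its keratin RNA per kb, against 10.4 to 26.8% in the other 8 libraries, and Krt28 and Krt71 gave 0 of its 42 keratin counts. In counts the Krt27 share there was 76.2% (exact 95% interval 60.5 to 87.9%). In wt/wt replicate 3, Krt28 was the leading keratin with 54.3% per kb. Krt28 also led in wt/wt replicates 2 and 5, with 36.7 and 37.8%, and narrowly in ko/ko replicate 3, with 34.1% against 33.6% for Krt25. Krt73 ranged widely within wt/wt, from 0 in replicates 3 and 5 to 13.2% in replicate 4.

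**Figure D3:**
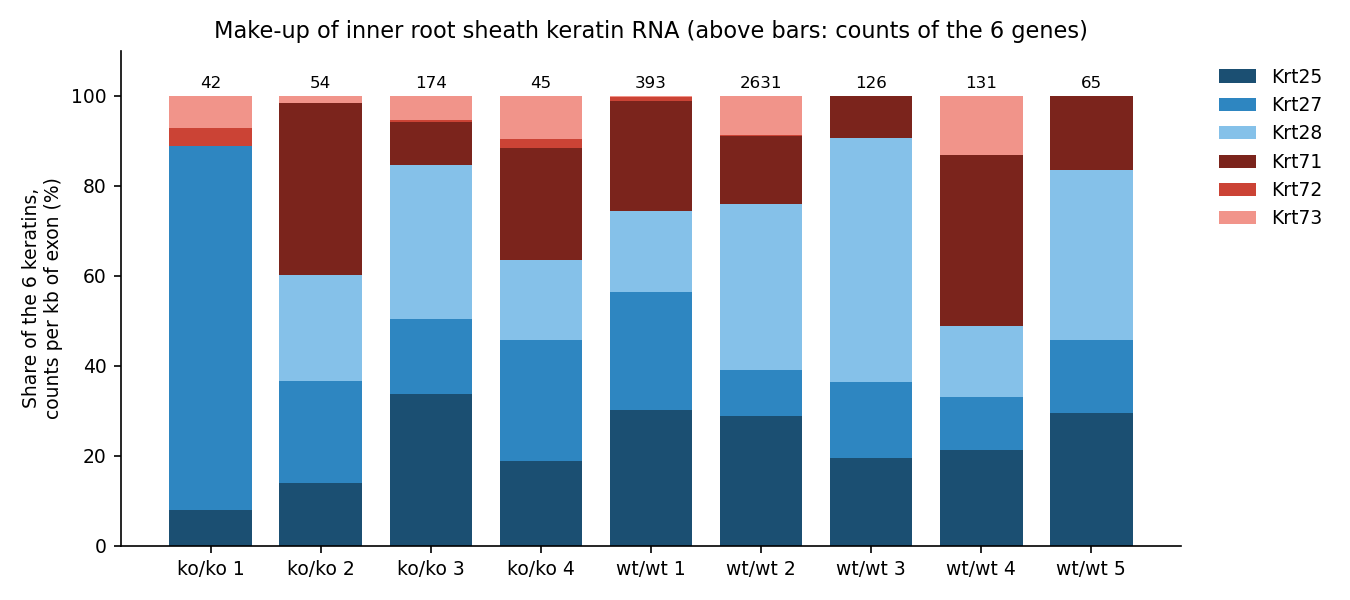
Share (%) of each of the 6 inner root sheath keratins in each library, from counts per kb of exon, with type I genes in blue and type II genes in red and the number of keratin counts above each bar. Krt27 fills 80.9% of the bar of ko/ko replicate 1, which rests on 42 counts, whereas wt/wt replicate 2, with 2631 counts, has a type I share of 75.8%.

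Across the 9 libraries, log2 CPM of the 4 keratins that passed the filter went together, with Pearson's r of 0.59 to 0.94 over 6 pairs (median 0.84) and Spearman's rho of 0.47 to 0.90. Krt25 and Krt28 were the closest pair, at r = 0.94 over all 9 libraries and 0.86 over the 8 without wt/wt replicate 2. Without that library the 6 pairs ranged from 0.16 to 0.86, with a median of 0.64. The points share library depth and the genotype difference, and with deviations from the genotype means the median was 0.80.

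Dlx3 varied with the keratins across libraries, and Msx2 did so through wt/wt replicate 2. Dlx3 and Krt28 had r = 0.97 and rho = 0.98 over 9 libraries, and r = 0.95 over the 8 without wt/wt replicate 2. With the 4 keratins, Dlx3 had r of 0.54 to 0.97, lowest with Krt27, where it was 0.08 without wt/wt replicate 2. Msx2 had r of 0.57 to 0.68 with the keratins but rho of -0.08 to 0.15, and r of -0.30 to -0.18 without wt/wt replicate 2. Msx2 and Dlx3 had r = 0.53 and rho = -0.12 with each other. These are descriptions over the same 9 libraries from which the genes were chosen.

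**Figure D4:**
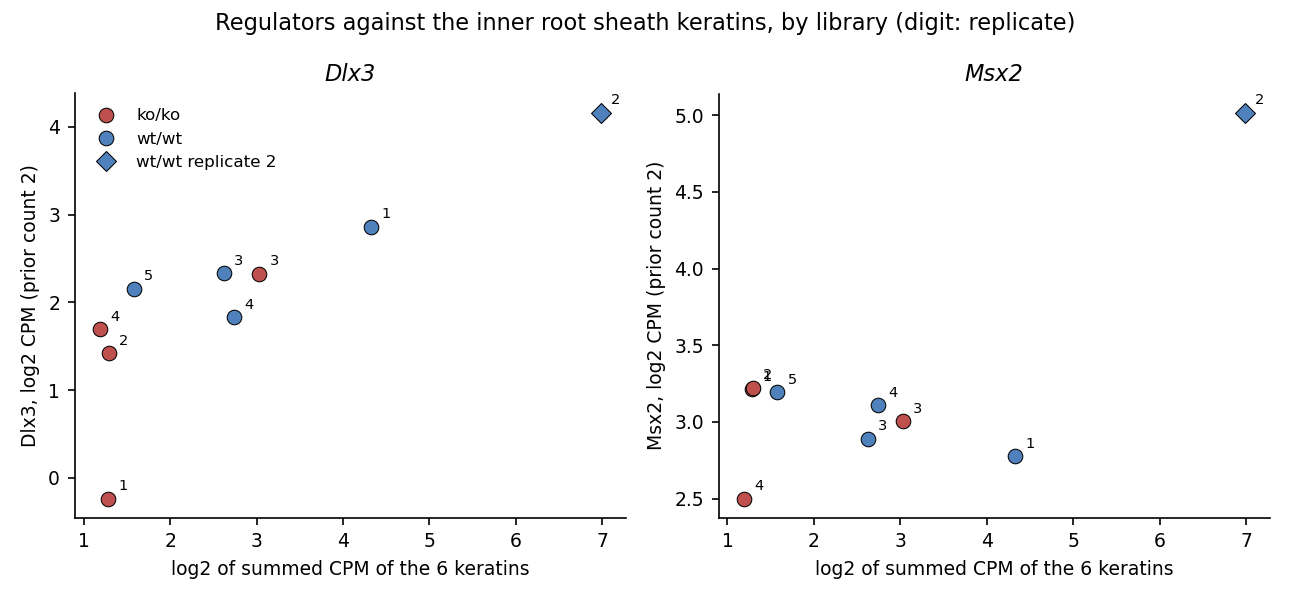
Log2 CPM (prior count 2) of Dlx3 (left) and Msx2 (right) against the log2 of the summed CPM of the 6 keratins, 1 point per library with its replicate number, ko/ko in red and wt/wt in blue. Dlx3 climbs with the keratin sum over both genotypes, while Msx2 is flat apart from wt/wt replicate 2 at 32.2 CPM.

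Other genes of the inner root sheath gave differences of both signs. Of 9 listed, 8 were detected, of which wt/wt replicate 2 was highest for 5. Most of these rest on few counts: in that library Padi1 had 5, Padi3 12, Krt26 15 and Tgm3 31, against 661 for Cux1. The share of all genes that were highest in that library was not computed. The filter passed 5, with 3 positive and 2 negative log2 fold changes (median 0.13), and edgeR called 0. Over this list and the 7 lists of other hair and proliferation genes that follow, cell type markers aside, edgeR gave 2 genes, Bmp2 and Mcm5, an unadjusted p under 0.05 (both lower in ko/ko), DESeq2 called 0 and voom called 1 (Bmp2). Tchh, which encodes trichohyalin, averaged 7.49 ± 6.14 CPM in ko/ko (SD, n = 4) and 6.04 ± 3.49 CPM in wt/wt (SD, n = 5), a log2 fold change of 0.31 (edgeR adjusted p = 0.816). Gata3, a transcription factor needed for the sheath lineage, averaged 21.1 ± 7.03 CPM in ko/ko (SD, n = 4) and 19.4 ± 4.93 CPM in wt/wt (SD, n = 5), a log2 fold change of 0.13 (edgeR adjusted p = 0.841). The highest value of both genes was in ko/ko replicate 1, the library with the least Krt28, Krt71 and Dlx3. Trps1, a repressor of the GATA type, was 83.3 to 92.5 CPM in ko/ko and 56.5 to 82.5 CPM in wt/wt, with no overlap (0.31, SE 0.15, edgeR adjusted p = 0.348). Cux1, a homeodomain factor of the sheath, averaged 16.0 ± 3.53 CPM in ko/ko (SD, n = 4) and 19.2 ± 10.2 CPM in wt/wt (SD, n = 5), with its highest values in wt/wt replicates 1 and 2. Without wt/wt replicate 2 its wt/wt mean was 16.0 ± 8.45 CPM (SD, n = 4). Krt74 was at 0 in every library.

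Keratins of the hair shaft were sparse as well. Of 16 cortex and cuticle keratins listed, 15 had a gene row (Krt85 had none) and 14 were detected. The filter passed 4, all 4 with a negative log2 fold change (median -1.65), and edgeR called 0. Krt35, an early cortex and cuticle keratin, had 0.0578, 2.31, 9.84 and 1.01 CPM in ko/ko replicates 1 to 4, against 3.41, 52.8, 16.6, 0.407 and 2.07 CPM in wt/wt replicates 1 to 5. As for Krt28, wt/wt replicate 2 was highest and ko/ko replicate 1 lowest, and the groups overlapped (log2 fold change -2.17, SE 1.28, edgeR adjusted p = 0.443). Krt36, another cortex keratin, averaged 0.650 ± 0.513 CPM in ko/ko (SD, n = 4) and 2.76 ± 3.67 CPM in wt/wt (SD, n = 5), and Krt32, a cuticle keratin, 0.672 ± 0.514 CPM in ko/ko and 1.37 ± 1.52 CPM in wt/wt. Krt87 averaged 0.379 ± 0.390 CPM in ko/ko and 0.888 ± 0.857 CPM in wt/wt. Without wt/wt replicate 2 the wt/wt means were 5.61 ± 7.40 CPM for Krt35, 1.22 ± 1.42 for Krt36, 0.715 ± 0.462 for Krt32 and 0.533 ± 0.375 for Krt87 (SD, n = 4). Of 57 keratin-associated protein genes, which encode the matrix between shaft keratin filaments, 39 were detected and 0 passed the filter. Their sum was 0.543 to 2.60 CPM in ko/ko and 0.508 to 6.05 CPM in wt/wt. The highest sum was in wt/wt replicate 2, where Krtap13-1 reached 4.71 CPM and gave 98 of the 126 counts of the list. Gene by gene, that library was the highest for 2 of the 39 detected. Krtap13-1 averaged 0.143 ± 0.199 CPM in ko/ko (SD, n = 4), against 1.28 ± 1.95 CPM in wt/wt (SD, n = 5) and 0.420 ± 0.390 CPM in wt/wt without replicate 2 (SD, n = 4). Krtap11-1 averaged 0.0117 ± 0.0234 CPM in ko/ko and 0.389 ± 0.434 CPM in wt/wt, Krtap16-1 0.369 ± 0.146 CPM in ko/ko and 0.325 ± 0.107 CPM in wt/wt, and Krtap17-1 0.232 ± 0.193 CPM in ko/ko and 0.279 ± 0.334 CPM in wt/wt.

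The keratins of the companion layer and outer root sheath were also highest in wt/wt replicate 2. All 5 had a negative log2 fold change (median -0.63), and edgeR called 0. Krt17, the abundant outer root sheath keratin, had 249, 192, 261 and 173 CPM in ko/ko replicates 1 to 4, against 291, 891, 155, 137 and 152 CPM in wt/wt replicates 1 to 5. Apart from wt/wt replicates 1 and 2, all wt/wt libraries lay below all ko/ko libraries (log2 fold change -0.57, SE 0.52, edgeR adjusted p = 0.626). The summed level of the list was 244 ± 44.5 CPM in ko/ko (SD, n = 4), against 366 ± 350 CPM in wt/wt (SD, n = 5) and 212 ± 73.1 CPM in wt/wt without replicate 2 (SD, n = 4). Krt75, a companion layer keratin, averaged 0.661 ± 0.674 CPM in ko/ko (SD, n = 4) and 2.34 ± 3.60 CPM in wt/wt (SD, n = 5), with 8.75 CPM in wt/wt replicate 2 and a wt/wt mean of 0.737 ± 0.403 CPM without it (SD, n = 4). Krt16 averaged 19.9 ± 4.72 CPM in ko/ko and 30.9 ± 19.8 CPM in wt/wt, and Krt6a 4.02 ± 1.36 CPM in ko/ko and 6.71 ± 5.33 CPM in wt/wt.

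Of 11 other hair matrix transcription factors, 5 had a positive and 6 a negative log2 fold change (median -0.07), and edgeR called 0. Lef1, which carries WNT signals to the genome, averaged 37.5 ± 6.31 CPM in ko/ko (SD, n = 4) and 46.8 ± 5.32 CPM in wt/wt (SD, n = 5), with edgeR adjusted p = 0.350. Ovol1, a zinc finger factor of differentiating epithelium, and Vdr, the vitamin D receptor needed for hair cycling, were highest in wt/wt replicate 2. Ovol1 ranged from 34.6 to 74.3 CPM in ko/ko and reached 130 CPM in that library, with a log2 fold change of -0.07. Its mean was 53.0 ± 18.0 CPM in ko/ko and 36.9 ± 6.58 CPM in wt/wt without replicate 2 (SD, n = 4 each). Vdr ranged from 9.36 to 33.5 CPM in ko/ko and reached 60.5 CPM in wt/wt replicate 2. In log2 CPM, Vdr was 5.92 in that library and 4.25 to 4.60 in the other wt/wt libraries. Runx1 averaged 115 ± 8.96 CPM in ko/ko and 113 ± 31.7 CPM in wt/wt. By likeness to the keratins, the 11 factors ranged from r = -0.10 for Gli1, which carries hedgehog signals (-0.75 without wt/wt replicate 2), to r = 0.86 for Foxn1, the nude gene of hair differentiation (0.83). Vdr had r = 0.85 (0.62 without wt/wt replicate 2), Sox21 0.76 (0.52), Hoxc13, a regulator of hair keratin genes, 0.74 (0.60) and Ovol1 0.56 (-0.20). The other 5 factors, Lef1, Runx1, Hr, Runx3 and Foxq1, had r of 0.22 to 0.55, or 0.15 to 0.44 without that library.

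Of the relatives of Msx2 and Dlx3, 6 passed the filter, of which 1 had a positive and 5 a negative log2 fold change (median -0.02), and edgeR called 0. The sum over all 7 relatives was 314 to 356 CPM in ko/ko and 270 to 414 CPM in wt/wt. For this sum wt/wt replicate 2, the highest library for Msx2 and Dlx3, was the lowest. Gene by gene, that library was the highest for 3 of the 7. Msx1 averaged 171 ± 16.2 CPM in ko/ko (SD, n = 4) and 173 ± 24.4 CPM in wt/wt (SD, n = 5). Dlx5 averaged 129 ± 8.06 CPM in ko/ko and 149 ± 35.9 CPM in wt/wt, and was lowest in wt/wt replicate 2 at 95.1 CPM. Dlx2 averaged 16.7 ± 1.03 CPM in ko/ko and 16.9 ± 4.53 CPM in wt/wt, and Dlx6 7.26 ± 1.51 CPM in ko/ko and 7.65 ± 1.67 CPM in wt/wt. The likeness to the keratins had both signs. It was r = -0.60 for Msx1 (-0.10 without wt/wt replicate 2), -0.59 for Dlx6 (-0.06) and -0.47 for Dlx5 (0.21). For Dlx4 it was 0.41 (-0.38), for Dlx1 0.32 (-0.10) and for Dlx2 0.08 (-0.61).

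Among 19 signals and receptors of the hair matrix, 15 passed the filter, 8 with a positive and 7 with a negative log2 fold change (median 0.03), and edgeR called 0. Bmp2, a ligand upstream of Msx genes, had 117, 190, 206 and 216 CPM in ko/ko replicates 1 to 4, against 211, 189, 313, 354 and 296 CPM in wt/wt replicates 1 to 5. It was low in wt/wt replicate 2, unlike Msx2, and the groups overlapped through that library and replicate 1 (log2 fold change -0.58, SE 0.23, edgeR adjusted p = 0.275). Bmp2 passed the threshold with voom. Bmpr1a, the BMP receptor of the matrix, averaged 61.4 ± 21.5 CPM in ko/ko and 51.9 ± 7.74 CPM in wt/wt. Fgf7, a dermal growth factor, averaged 108 ± 23.5 CPM in ko/ko and 111 ± 44.7 CPM in wt/wt, and its receptor Fgfr2 106 ± 16.6 CPM in ko/ko and 103 ± 19.2 CPM in wt/wt.

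Proliferation genes were highest in wt/wt replicate 2 too, for 11 of 12. Their sum was 148 to 167 CPM in ko/ko and 137 to 393 CPM in wt/wt, with 393 CPM in that library. Of the 12, 1 had a positive and 11 a negative log2 fold change (median -0.55), and edgeR called 0. Top2a, a topoisomerase of dividing cells, averaged 17.0 ± 7.53 CPM in ko/ko (SD, n = 4) and 20.8 ± 20.6 CPM in wt/wt (SD, n = 5). Mcm5, a subunit of the replicative helicase, averaged 12.1 ± 1.80 CPM in ko/ko and 19.2 ± 8.92 CPM in wt/wt (edgeR adjusted p = 0.295). In log2 CPM, Mcm5 was 5.13 in wt/wt replicate 2 and 3.84 to 4.10 in the other wt/wt libraries. Pcna, the sliding clamp of replication, averaged 70.2 ± 8.14 CPM in ko/ko and 79.8 ± 10.1 CPM in wt/wt, and Mki67 10.9 ± 5.48 CPM in ko/ko and 12.1 ± 12.5 CPM in wt/wt. Without that library the wt/wt means of Mki67 and Top2a were 6.64 ± 3.5 and 11.7 ± 2.66 CPM (SD, n = 4), below those of ko/ko. Without wt/wt replicate 2 the mean sums of the list were 155 ± 8.58 CPM in ko/ko and 154 ± 20.9 CPM in wt/wt (SD, n = 4 each).

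Of the 7 lists of cell type markers, the basal keratinocyte and fibroblast sums had their extremes in wt/wt replicate 2. Summed over 6 basal keratinocyte genes, ko/ko libraries had 1202 to 2019 CPM and wt/wt libraries 1152 to 2362 CPM, with the highest sum in wt/wt replicate 2. Summed over 6 fibroblast genes, ko/ko libraries had 17753 to 33480 CPM and wt/wt libraries 13869 to 32777 CPM, with the lowest sum in wt/wt replicate 2. The dermal papilla sum, from 9 genes of the dermal cells that instruct the matrix, was 133 to 368 CPM in ko/ko and 221 to 336 CPM in wt/wt. It was lowest in ko/ko replicate 1. The hair follicle stem cell sum was 1361 to 1601 CPM in ko/ko and 1131 to 1399 CPM in wt/wt, and the bulb melanocyte sum 228 to 438 CPM in ko/ko and 214 to 588 CPM in wt/wt. The suprabasal sum was 150 to 242 CPM in ko/ko and 177 to 259 CPM in wt/wt. Itga6, which encodes the sorted CD49f, averaged 83.0 ± 14.6 CPM in ko/ko (SD, n = 4) and 53.4 ± 9.04 CPM in wt/wt (SD, n = 5), with edgeR adjusted p = 0.157, and was called by DESeq2 and by voom. Leukocyte genes had 2.63 to 113 CPM in ko/ko and 1.78 to 14.7 CPM in wt/wt, and were high in ko/ko replicates 1, 2 and 3. edgeR called 0 of the 5 leukocyte genes, DESeq2 called 4 (Ptprc, Laptm5, Cd74 and Fcer1g) and voom called 1 (Ptprc). Of the other markers, DESeq2 and voom called Krt1, and voom called Krt15, Dct and Sbsn. None of these marker lists had a gene at 0 in all libraries. The part of cell makeup in the keratin difference was not tested.

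**Figure D5:**
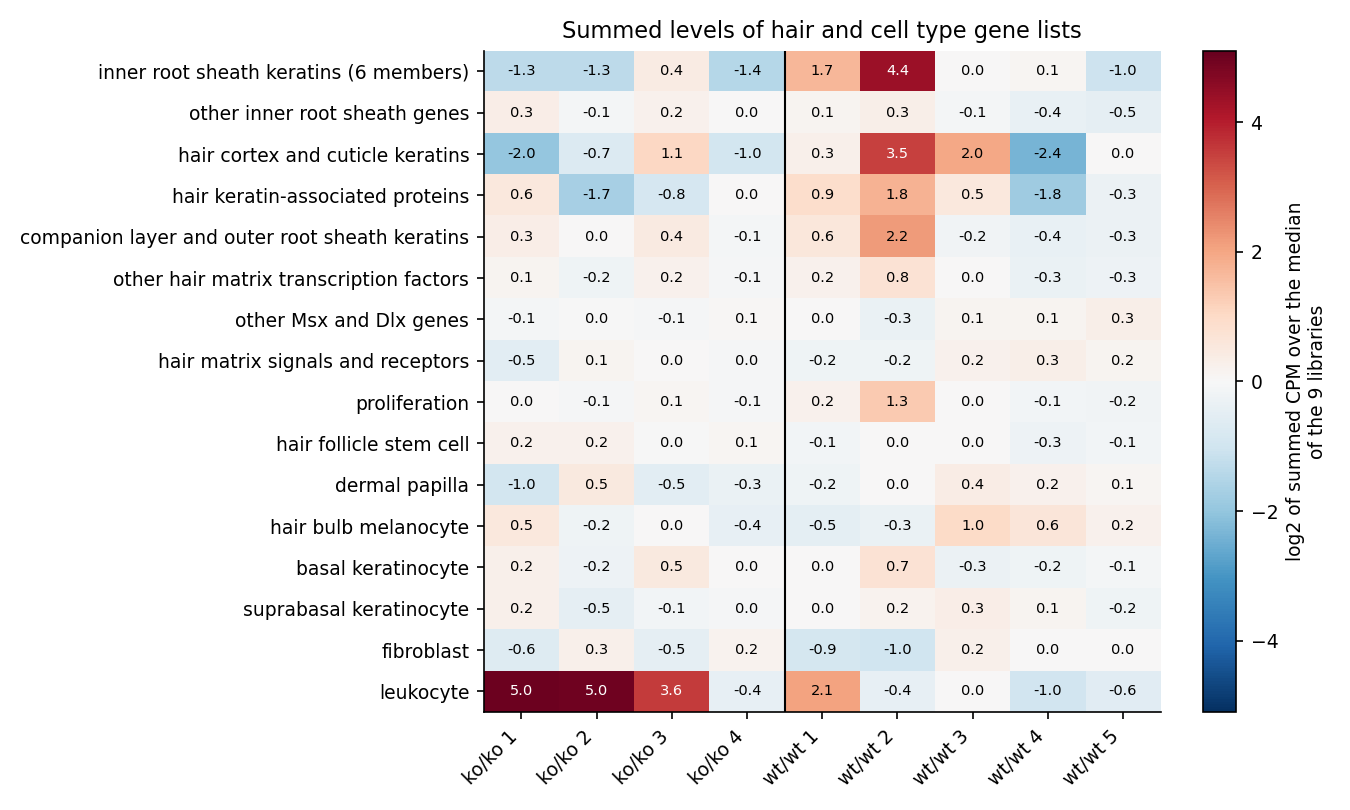
Log2 of the summed CPM of each gene list in each library, relative to the median of the 9 libraries, with ko/ko left of wt/wt and colour and printed digits giving the same value. The column of wt/wt replicate 2 holds the highest values for the inner root sheath, cortex and companion layer keratins and for proliferation, at 126 CPM for the 6 keratins, while fibroblast genes are lowest there at 13869 CPM.

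The 10 genes most like the 4 keratins in log2 CPM over the 9 libraries were Hmgb2, Nectin2, Gm15542, Krit1, Dll1, Mycn, Prkch, Kif20a, Mat2a and Nuf2, with r of 0.95 to 0.97. Hmgb2, a chromatin protein abundant in dividing cells, had r = 0.97, and 0.94 without wt/wt replicate 2. Nectin2, a cell adhesion molecule, had r = 0.97 in both. For Kif20a and Nuf2, which serve mitosis, r was 0.84 and 0.88 without that library. When likeness was taken on deviations from the genotype means, 1 of the 10 (Hmgb2) stayed among the first 10, and the others ranked between 11 and 50, with r of 0.92 to 0.96 for all 10.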

How the data were processed

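The authors deposited raw counts of reads per gene, 1 column per sample, and an exon length per gene. GSNAP, featureCounts 1.6.2 and mm10 are named in the submitters' processing notes; how strand and multi-mapped reads were handled is not given in the sources used here. Of 49763 rows, 92 spike-in rows were left out, and symbols came from GENCODE mouse M21 by identifier (49326 rows). The 8 genes and the gene lists were chosen with earlier results of these data known. They were fitted within the whole table in R 4.3.3 with edgeR 4.0.16: filterByExpr on genotype (18435 kept, 31236 removed), TMM factors, robust quasi-likelihood fit, two-sided F test and Benjamini-Hochberg adjustment at 0.05. The SE is the size of the log2 fold change divided by the root of F. The script was tested on simulated data. Log2 CPM use a prior count of 2. By raw library totals, 1 count equals 0.0431 to 0.0641 CPM. With TMM-adjusted sizes, used for the levels printed, it equals 0.0578 CPM in ko/ko replicate 1 and 0.0453 CPM in ko/ko replicate 2.

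Alternatives were other scaling factors (RLE, upper-quartile, none), a stricter or absent filter, DESeq2 1.42.0, voom with quality weights (limma 3.58.1), and each library left out; leaving out wt/wt replicates 1 and 2 was added after seeing the data. From each hair list the 4 genes with the highest mean CPM are named, with the 10 genes most alike; by the rule edgeR calls were to be added. Marker lists are given mainly as sums, and genes named for other tools' calls or for likeness were chosen after their values were seen. Intervals are exact binomial and, like floors of 3 counts, cover counting error only, since the labels name no molecular identifiers. Promoters are from the RefSeq table; protein sequences were not used here.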

Additional observations from a re-analysis of the deposited data

Results flagged for a closer look

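Within groups of 4 or 5 libraries, 194 sets of values were examined for a single library far from the others, and 15 were found. For unselected, independent sets chance gives about 1 in 20, or 9.7. Some sets, such as the 8 genes and the 10 genes most like the keratins, were chosen from these same values. Many sets also vary together, so nothing is read from the comparison with chance. Values are log2 CPM. In wt/wt replicate 2, Msx2 was at 5.02, against 2.78 to 3.19 in the other wt/wt libraries. Among the wt/wt libraries the same library was highest for Gata3 at 4.82, Ovol1 at 7.03, Vdr at 5.92, Top2a at 5.84, Mcm5 at 5.13 and Krt15 at 9.16. It was also the highest of them for the log2 of the summed proliferation genes, at 8.62.

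In ko/ko replicate 3, the log2 of the summed inner root sheath keratins was 3.03, while the other ko/ko libraries had 1.19 to 1.29. Among the ko/ko libraries that library was also highest for Dll1 at 4.15 and for Krtap11-1 at -2.78, the second of which rests on 1 count. The library ko/ko replicate 1 was the lowest of its genotype for Dlx2 at 3.94 and for Fgfr2 at 6.35. Within wt/wt, Krtdap was lowest in replicate 5 at 6.45, and Cd74 highest in replicate 1 at 3.58. The spike-in rows, left out of all comparisons, held 1 to 3 counts in 8 libraries and 6 counts in wt/wt replicate 1.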

How the results depend on the processing

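Of 102 alternative values of the fitted genes, 100 stayed negative; the 2 that turned were Msx2 without wt/wt replicate 2 (0.0128, with a range of -0.84 to 0.01 when 1 library was left out) and Krt27 without wt/wt replicates 1 and 2 (0.60). Another 8 moved by more than the spread between replicates, with voom or without wt/wt replicate 2 or replicates 1 and 2; with voom Krt25 was -0.94, Krt71 -1.05 and Krt27 -0.18. None of the 18 settings called any of the 8 genes that it tested. Genes called in the whole table numbered 1 with the settings reported, 4 with no factors, 28 with no filter, 630 with DESeq2, 1802 with voom and 1635 without wt/wt replicates 1 and 2; leaving out 1 library gave 0 to 12 (12 without ko/ko replicate 4). The ratio of summed keratin CPM, ko/ko over wt/wt, was 0.118, ranged from 0.0734 to 0.428 when 1 library was left out (0.428 without wt/wt replicate 2) and was 0.726 without wt/wt replicates 1 and 2; the cause was not tested. The median r of the keratin pairs was 0.64 to 0.90 when 1 library was left out, lowest without wt/wt replicate 2, and the median type I share 75.1 to 79.6%. The keratins rest on 42 to 174 counts per ko/ko library, which limits the precision of each share. No paired analysis was possible because the labels give no replicate numbers.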

Other observations

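The neighbours of the keratin genes in their clusters were at very different levels. On chromosome 11, Krt24 had 50 counts over the 4 ko/ko libraries and 118 over the 5 wt/wt libraries, and Krt26, which lies between Krt25 and Krt27, had 8 in ko/ko and 17 in wt/wt. Krt10, the suprabasal keratin beside Krt28, had 3469 counts in ko/ko and 4277 in wt/wt, and Krt12, next to it, 20 in ko/ko and 14 in wt/wt. On chromosome 15, Krt5, the basal keratin beside Krt71, had 14678 counts in ko/ko and 20356 in wt/wt. Krt74, between Krt71 and Krt72, had none, and Krt2, next after Krt73, had 24279 counts in ko/ko and 43021 in wt/wt. Krt1, beyond Krt2, had 811 counts in ko/ko and 512 in wt/wt. These counts are pooled over 4 and 5 libraries, so they do not compare the genotypes. Mean CPM in ko/ko and wt/wt were 44.1 and 41.8 for Krt10, and 183 and 198 for Krt5. They were 307 and 419 for Krt2, and 10.3 and 4.97 for Krt1.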
